A study of Homo sapiens with 8 samples.

Results

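The genes POU3F3, OVOL3, GATA1, ADIPOQ, CDH5, COL1A1 and CD14, grouped as genes of lineages other than hepatocytes, were followed across all 8 arrays of the study. Each was found by its symbol in the probe annotation. All 7 were measured, each by 1 probe, out of 18821 genes with a symbol. They were picked as genes little expected in a liver cell line and for negative ratios on these same arrays. Their ratios against untreated cells are therefore a description, given without a test. CD14 went against that description, since its log2 ratio was above 0 on 7 of the 8 arrays.

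The cells were HepG2, an established human hepatoblastoma line used as a model of hepatocytes. Lipid loading lasted 24 h and used 400 µM oleate bound to albumin per the labels' protocols, while another label names oleate and palmitate together. The cells were then kept for 24 h in serum-free medium alone (the lipid-loaded group, 3 arrays), with 100 µM fenofibrate (3 arrays) or with 1 mM linalool (2 arrays). Fenofibrate is a drug against high blood lipids that acts through the nuclear receptor PPARα, and linalool is a fragrant monoterpene alcohol of plant oils. Every group given a compound was thus also lipid-loaded. On each array the treated sample carried Cy3 and untreated HepG2 cells Cy5, with no dye swap, so a dye effect of a gene stays in its ratio. Whether untreated cells had a serum-free day too, and whether arrays of a group stand for separate cultures, is not in the labels. Any p-value thus covers the array-to-array spread alone, which may be technical, and a test against 0 may leave out the spread of the untreated cells.

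Values are log2 ratios with the deposited sign. Which channel is the numerator is not given in the sources used here, so positive and negative name that sign only and carry no direction between treated and untreated cells. A ratio between channels does not show how much RNA of a gene was present in either, and spot intensities were not used here. In RNA from a whole culture, fewer cells of a type and less RNA per cell cannot be told apart. The number of arrays limits the precision. Over all genes, the SD of the log2 ratio was 0.69 on lipid-loaded replicate 1 and 0.43 to 0.56 on the other 7 arrays. Fenofibrate replicate 3 correlated with the mean of the other arrays at r = 0.127 across genes, against 0.440 to 0.716 for the others. Genes are not independent replicates.

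The 7 genes were grouped as genes of different cell lineages. POU3F3 and OVOL3 code for DNA-binding factors, the first a POU homeodomain protein of the developing nervous system and kidney, the second a zinc finger protein of the OVO family, whose better known members act in epithelial differentiation. GATA1 is the zinc finger factor that red cell and platelet precursors need to mature. ADIPOQ codes for adiponectin, the hormone fat cells secrete, CDH5 for VE-cadherin, which joins endothelial cells, and COL1A1 for the main chain of type I collagen, made by fibroblasts and activated stellate cells. CD14 is the surface protein of monocytes that hands bacterial endotoxin to the receptor TLR4, and hepatocytes also release a soluble form of it.

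The genes lie on 7 different chromosomes in the RefSeq annotation of GRCh38.p14. POU3F3 spans chr2:104853276-104927773, OVOL3 chr19:36111143-36113711, GATA1 chrX:48786590-48794311, ADIPOQ chr3:186842710-186858463, CDH5 chr16:66366691-66404784, COL1A1 chr17:50184101-50201631 and CD14 chr5:140631732-140633701. A RefSeq upstream sequence was at hand for 5 of the 7, all but CDH5 and COL1A1. Shown are the 250 bases before the annotated start of the 3 whose window lies wholly outside the gene record. Capitals mark CG dinucleotides, the strand is that of the gene (+ in each) and the build is GRCh38.p14. The windows are chr19:36110893-36111142 for OVOL3, chrX:48786340-48786589 for GATA1 and chr3:186842460-186842709 for ADIPOQ.
OVOL3: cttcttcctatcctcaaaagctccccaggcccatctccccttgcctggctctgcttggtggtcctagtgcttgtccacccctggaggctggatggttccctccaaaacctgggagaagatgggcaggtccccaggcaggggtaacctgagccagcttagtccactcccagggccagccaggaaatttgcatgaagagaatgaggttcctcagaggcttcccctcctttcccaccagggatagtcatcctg
GATA1: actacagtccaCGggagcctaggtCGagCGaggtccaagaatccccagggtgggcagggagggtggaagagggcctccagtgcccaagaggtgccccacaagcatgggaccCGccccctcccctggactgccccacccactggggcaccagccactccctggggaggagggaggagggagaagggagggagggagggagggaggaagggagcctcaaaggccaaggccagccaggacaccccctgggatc
ADIPOQ: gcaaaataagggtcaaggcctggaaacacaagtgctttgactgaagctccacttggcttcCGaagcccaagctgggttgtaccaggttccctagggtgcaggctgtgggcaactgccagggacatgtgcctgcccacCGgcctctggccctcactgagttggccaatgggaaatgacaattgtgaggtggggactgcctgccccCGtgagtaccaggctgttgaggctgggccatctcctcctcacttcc

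These windows hold few CG dinucleotides. OVOL3 had 0, GATA1 had 4 and ADIPOQ had 3, against a median of 11 over 27305 RefSeq windows of the same length. The windows of CD14 (chr5:140633176-140633425) and POU3F3 (chr2:104853865-104854114) lie inside their gene records. CD14 had 5, while POU3F3 had 18. GC content ran from 54.8% for CD14 to 68.4% for GATA1, against a median of 58.0%. The letters CCAAT, searched on both strands, occurred 3 times in the POU3F3 window and 1 time in that of ADIPOQ. They are held by 33% of all windows. TATAAA (11.1% of all windows) and GATAA (21%), also searched on both strands, were in none of the 5, and these motifs share the letters ATAA. A match is a description of letters.

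POU3F3 had the most negative ratio of the 7 in lipid-loaded cells. Its log2 ratios were -2.16, -3.21 and -1.57 on lipid-loaded replicates 1, 2 and 3. They were -1.59, -0.39 and -0.78 on fenofibrate replicates 1, 2 and 3, and -0.74 and -0.97 on linalool replicates 1 and 2. All 8 arrays were negative, and fenofibrate replicate 1 lay just below the least negative lipid-loaded array. The mean was -2.31 ± 0.83 (SD, n = 3) in lipid-loaded cells, a 4.96-fold ratio between channels, against -0.92 ± 0.61 (n = 3) with fenofibrate and -0.85 ± 0.16 (n = 2) with linalool.

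OVOL3 was more negative on each lipid-loaded array than on the other arrays, the closest pair being -1.21 and -0.89. It stood at -2.72, -1.29 and -1.21 on the lipid-loaded arrays. The fenofibrate arrays gave 0.34, 0.11 and -0.49, on both sides of 0, and the linalool arrays -0.89 and -0.19. No array given a compound reached the lipid-loaded range. Group means were -1.74 ± 0.85 (SD, n = 3), -0.01 ± 0.43 (n = 3) and -0.54 ± 0.50 (n = 2) for lipid-loaded, fenofibrate and linalool. The fenofibrate mean changed sign, to 0.22 without fenofibrate replicate 3 and to 0.08 with array weights. Without lipid-loaded replicate 1 the lipid-loaded mean was -1.25.

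GATA1 was the gene whose groups lay farthest apart. Its log2 ratios were -1.88, -0.53 and -0.65 in lipid-loaded cells. With fenofibrate they were -1.50, -1.88 and -2.57, which overlapped the lipid-loaded values through lipid-loaded replicate 1. With linalool they were 0.02 and 0.69, both above 0 and above every other array. The fenofibrate mean of -1.98 ± 0.54 stood at the 0.00531 percentile of all genes, and it was -1.69 without fenofibrate replicate 3, the array that stands apart. The lipid-loaded mean of -1.02 ± 0.75 rested on replicate 1 and was -0.59 without it. The first linalool value was one that many probes shared. Before the constant added to each array, it was a ratio of exactly 1 (to 3 decimals), a value that 496 of the 29187 probes shared on that array, against 20 probes at 0.999 and 9 at 1.001. Over the arrays, 194 to 510 probes had this value. The sign of the first linalool value is thus that of the array's constant (0.0195). Without such values, the GATA1 linalool mean was 0.69 from 1 array. Of the 56 values of the 7 genes, this was the only one at exactly 1.

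ADIPOQ followed OVOL3 in its lipid-loaded values but scattered more. It stood at -2.84, -1.90 and -0.86 on the lipid-loaded arrays, at -0.60, -0.26 and 0.13 with fenofibrate and at -0.82 and 0.41 with linalool. The lipid-loaded arrays were all lower than the other 5, the closest pair being -0.86 and -0.82. Means were -1.87 ± 0.99 (SD, n = 3), -0.24 ± 0.37 (n = 3) and -0.20 ± 0.87 (n = 2), and the linalool arrays differed in sign.

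The endothelial and collagen genes were less negative. CDH5 stood at -1.84, -0.98 and -0.51 in lipid-loaded cells, at -0.66, -0.64 and -0.09 with fenofibrate and at -0.46 and -0.22 with linalool. Like POU3F3 it was negative on all 8 arrays, as were 4.28% of all genes, and its fenofibrate and lipid-loaded values overlapped. COL1A1 stood at -0.61, -0.89 and -1.55 in lipid-loaded cells, at -0.56, -0.04 and 0.35 with fenofibrate and at -0.51 and 0.57 with linalool. Its most negative value was on lipid-loaded replicate 3, where CDH5 and ADIPOQ had their least negative lipid-loaded value. Lipid-loaded means were -1.11 ± 0.67 for CDH5 and -1.02 ± 0.48 for COL1A1, and those of the other 2 groups lay between -0.46 and 0.03. The COL1A1 mean changed sign with fenofibrate, to 0.16 without fenofibrate replicate 1. With linalool it changed sign to -0.03 with arrays centred on the median and to -0.51 without linalool replicate 2.

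CD14 had another pattern. Its log2 ratios were 0.22, 0.06 and 0.0009 in lipid-loaded cells and -0.0006, 0.19 and 0.42 with fenofibrate. With linalool they were 1.22 and 1.17, higher than on any other array. The linalool mean of 1.20 ± 0.04 (n = 2), a 2.29-fold ratio between channels, stood at the 99.9 percentile of all genes, while the lipid-loaded mean of 0.09 ± 0.11 was at the 54.2 percentile.

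**Figure D1:**
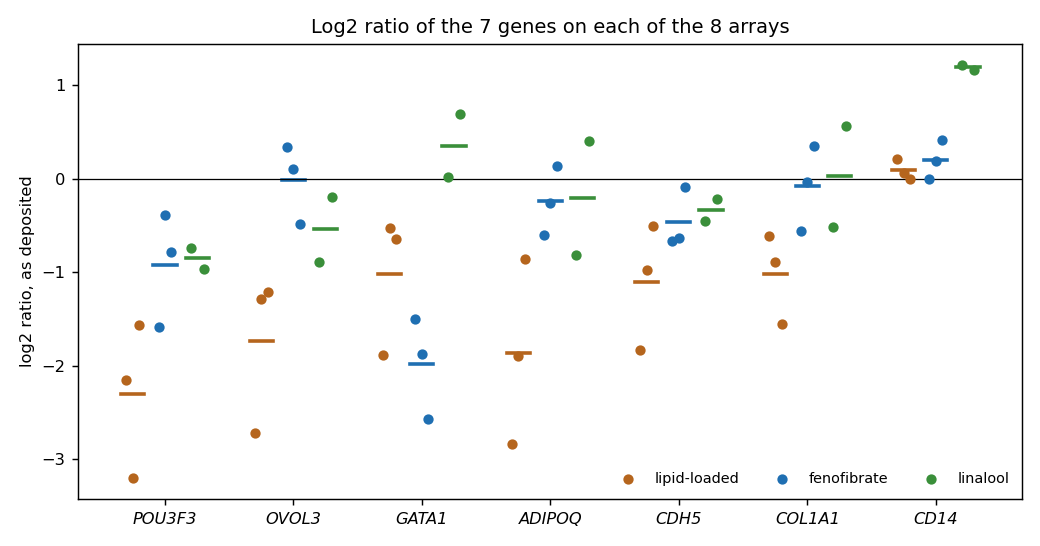
Log2 ratio against untreated cells (vertical axis, deposited sign) of each of the 7 genes on the 3 lipid-loaded, 3 fenofibrate and 2 linalool arrays, 1 point per array, with a bar at each group mean. The lipid-loaded points of POU3F3, OVOL3 and ADIPOQ reach below -2.7, GATA1 is lowest with fenofibrate, and both linalool points of CD14 lie near 1.2.

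The order of the group means differed between groups. In lipid-loaded cells it ran from POU3F3 (-2.31) over ADIPOQ (-1.87), OVOL3 (-1.74), CDH5 (-1.11), GATA1 and COL1A1 (both -1.02) to CD14 (0.09), and neighbours differed by less than the SD of either up to COL1A1. With fenofibrate GATA1 was lowest at -1.98, and with linalool POU3F3 was, at -0.85. These ratios chose the genes and are not tested here. Over all 18819 genes tested, limma (adjusted p under 0.05) called 34.8% in lipid-loaded cells, 24.1% above 0 and 10.7% below 0 (4537 and 2018 genes, or 3675 and 2696 with each array centred on its median). No gene was called without lipid-loaded replicate 1 or once arrays were brought to equal spread. With fenofibrate and with linalool limma called 0 genes (0.00%), against 18.1% and 12.4% of genes at an unadjusted p under 0.05.

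All of the genes but CD14 varied more between arrays of a group than most genes. The pooled SD within groups was 0.77 for ADIPOQ, 0.66 for POU3F3, 0.64 for OVOL3, 0.62 for GATA1, 0.54 for COL1A1 and 0.48 for CDH5. The median was 0.37 over the 13445 genes with 1 probe (71.4% of genes), among which these 6 stood at the 72.8 to 97.3 percentile. CD14 varied least, with an SD of 0.15 at the 4.2 percentile. On lipid-loaded replicate 1, the array with the widest spread, 5 of the 7 genes lay below the fifth percentile of all genes, against 4 and 3 on lipid-loaded replicates 2 and 3 and 1 or 2 on each other array. With arrays brought to equal spread, the lipid-loaded median of the 7 genes was -0.85 against -1.11, with POU3F3 at -1.85 and ADIPOQ at -1.41. Beyond this setting, the part of array spread in the negative means was not tested.

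**Figure D2:**
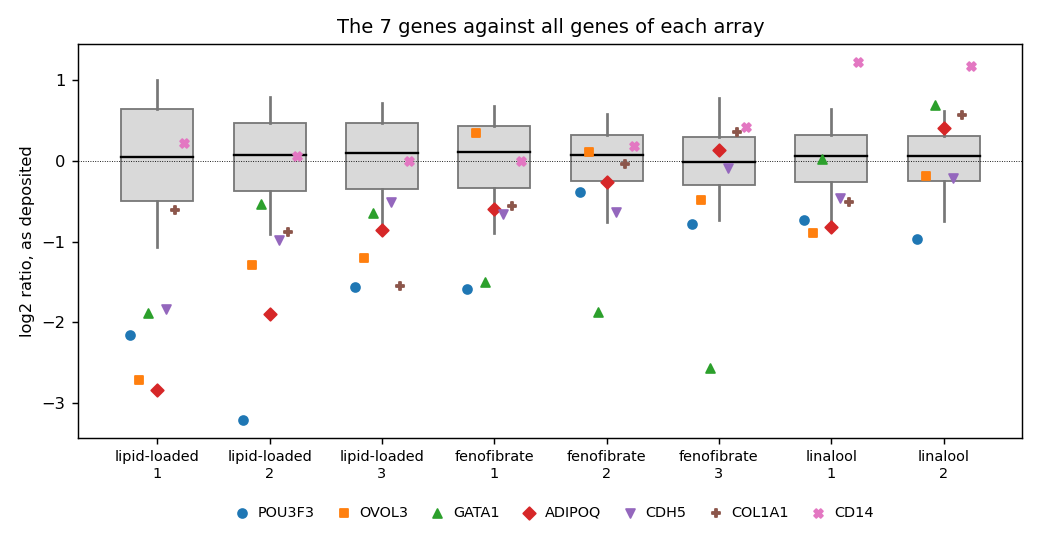
Log2 ratio (vertical axis, deposited sign) of the 7 genes on each array over the distribution of all 18821 genes, with boxes over the inner quartiles, a line at the median and whiskers that leave out 5% of genes at each end. On lipid-loaded replicate 1, 5 of the 7 genes lie below the whiskers, the points of POU3F3 on lipid-loaded replicate 2 (-3.21) and GATA1 on fenofibrate replicate 3 (-2.57) lie far below theirs, and CD14 lies above them on both linalool arrays.

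Differences between groups set the compounds against loading alone. They share arrays with the ratios that the genes were chosen on, so a less negative ratio outside the lipid-loaded group is not independent of that choice. The 2 comparisons with the lipid-loaded group also share its 3 arrays. No difference passed limma's test over all genes, where 0 of 18819 passed in each of the 3 comparisons (0.00%). At an unadjusted p under 0.05, 10.3%, 11.6% and 5.02% of all genes stood in fenofibrate minus lipid-loaded, linalool minus lipid-loaded and linalool minus fenofibrate. Of the 7 genes, 5, 6 and 2 did.

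In fenofibrate minus lipid-loaded, OVOL3 had the largest difference at 1.72 (SE 0.40, 95% interval 0.84 to 2.60, limma adjusted p = 0.472). ADIPOQ followed at 1.62 (SE 0.46) and POU3F3 at 1.39 (SE 0.41), with COL1A1 at 0.94 (SE 0.36). GATA1 was the only one of the 7 with a negative difference, -0.96 (SE 0.39, interval -1.83 to -0.10). CDH5 at 0.64 (SE 0.33) and CD14 at 0.11 (SE 0.22, interval -0.37 to 0.59) had intervals that included 0. CDH5 was 0.28 without lipid-loaded replicate 1, and CD14 ranged from 0.00 without fenofibrate replicate 3 to 0.21 without fenofibrate replicate 1. The arrays of the 2 groups did not overlap for OVOL3, ADIPOQ and COL1A1, each with fenofibrate above, as for 6.39% of all genes.

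In linalool minus lipid-loaded, all 7 differences were positive, from 0.77 (SE 0.37) for CDH5 to 1.66 (SE 0.52) for ADIPOQ, and the CDH5 interval (-0.04 to 1.58) included 0. Single arrays moved several of them. Without lipid-loaded replicate 1 CDH5 was 0.41 and OVOL3 0.71. Without linalool replicate 2 ADIPOQ was 1.05 and COL1A1 0.50, and without linalool replicate 1 COL1A1 was 1.58. CD14 stood at 1.10 (SE 0.25, interval 0.57 to 1.64, limma adjusted p = 0.325), the smallest p of the 7, and GATA1 at 1.38 (SE 0.44, adjusted p = 0.355). Both linalool arrays lay above all 3 lipid-loaded arrays for all 7 genes, as for 12.7% of all genes. In linalool minus fenofibrate, GATA1 stood at 2.34 (SE 0.44, interval 1.37 to 3.30, limma adjusted p = 0.777). Its p was the fifth smallest of all genes, a rank not independent of its choice for negative ratios. CD14 stood at 0.99 (SE 0.25, interval 0.46 to 1.53, limma adjusted p = 0.881). GATA1 and CD14 were the 2 whose arrays did not overlap, with linalool above as for 8.86% of all genes. The other 5 ranged from -0.53 (OVOL3, -0.17 without linalool replicate 1 and -0.88 without linalool replicate 2) to 0.13 (CDH5), and their intervals all included 0, within -1.51 to 1.18. The sign of POU3F3, ADIPOQ and COL1A1 in that comparison changed with the setting.

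**Figure D3:**
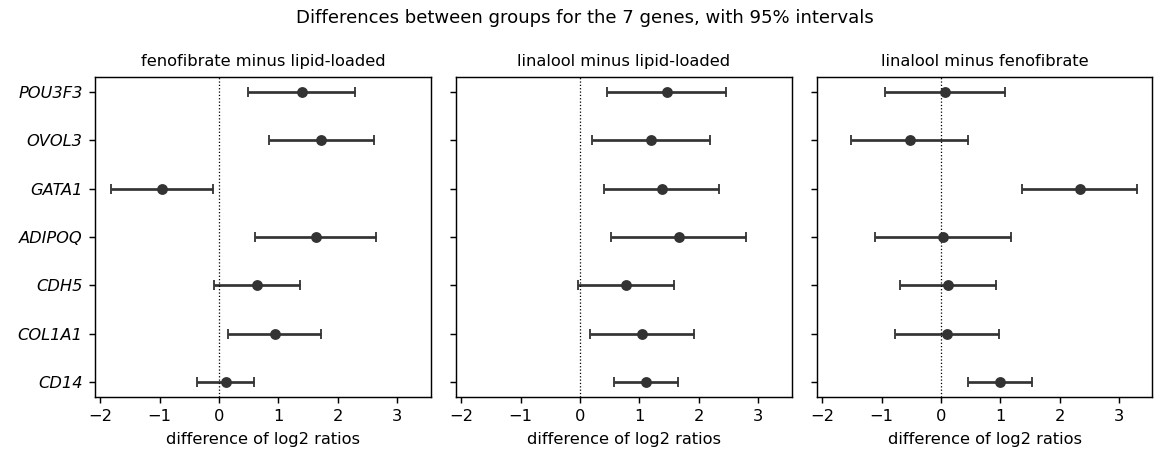
Differences of mean log2 ratio between groups (horizontal axis) for each of the 7 genes, with 95% intervals from the limma fit as bars. GATA1 is the only gene below 0 in fenofibrate minus lipid-loaded and lies at 2.34 in linalool minus fenofibrate.

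Lists of other genes of the same lineages and complexes, which leave out the 7 genes, were chosen with earlier results of these data known. Their call counts in lipid-loaded cells are to be read against the 24.1% of all genes called positive and the 10.7% called negative, and 50.1% of all genes had a negative mean. Of 15 measured neural genes, 12 had a negative mean, 6 passed below 0 and 1 above 0, and the median was -0.51 against -0.0031 over all genes. The positive call, TUBB3, a neuronal tubulin that was named after its value was seen, stood at 0.80. SNAP25, a synaptic vesicle fusion protein, was at -0.92 (SE 0.17, limma adjusted p = 0.0135), SOX1, a factor of neural progenitors, at -0.95 (SE 0.21), while GFAP, the astrocyte filament protein, stood at -0.91, -1.63 and -0.47 on the 3 arrays (limma adjusted p = 0.0192). The other POU class III genes did not pass, POU3F1 at -0.25 (SE 0.27), POU3F2 at -0.36 (SE 0.24) and POU3F4 at -0.27 (SE 0.17). POU3F1 had both signs within the lipid-loaded and the fenofibrate arrays.

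Among 9 epithelial factors, 5 had a negative mean, 2 passed below 0 and 1 above 0 (median -0.14), against 10.7% and 24.1% of all genes. The OVO family members differed from OVOL3. OVOL1 stood at -0.57 (SE 0.24, limma adjusted p = 0.0826) and OVOL2 at 0.14 (SE 0.17) in lipid-loaded cells, and OVOL2 was negative on all 5 arrays given a compound, from -0.80 to -0.27. GRHL3, a factor of skin barrier formation, was at -0.66 (SE 0.17) and passed, as did ESRP1, an epithelial splicing factor, at -0.87 (SE 0.31) but with -2.14 on replicate 1 and -0.18 and -0.29 on the other arrays, and ZEB1, a repressor of epithelial genes, at 0.65 (SE 0.18).

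For the erythroid and megakaryocyte list, 2 of 15 genes passed, both negative (median -0.23), near the 10.7% of all genes called negative. These were the globins HBG1 at -0.85 (SE 0.18) and HBB at -0.58 (SE 0.18), whose close copies in the globin clusters may share their probes. With fenofibrate, where GATA1 was lowest, the list had a median of -0.16 and 1 of 15 genes at an unadjusted p under 0.05, against 18.1% of all genes. Of the other GATA factors, GATA4, which acts in liver and gut, was positive on all lipid-loaded and fenofibrate arrays, with a lipid-loaded mean of 0.52 (SE 0.15, limma adjusted p = 0.0234). GATA5 was negative on all 8 arrays, with means of -0.55 (SE 0.22), -0.84 (SE 0.22) and -0.62 (SE 0.27) in lipid-loaded, fenofibrate and linalool, none of which passed. GATA6 ranged from -1.39 to 1.43 over the lipid-loaded arrays.

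Of 12 adipocyte genes, 10 had a negative mean and 2 passed, both negative (median -0.39), against 10.7% of all genes called negative. LPL, lipoprotein lipase, was at -0.96 (SE 0.20) and FABP4, the fat cell fatty acid carrier, at -0.66 (SE 0.16), while PLIN4, a lipid droplet coat protein, was at -0.46 (SE 0.17, limma adjusted p = 0.0552). The measured adiponectin receptors had ratios of the opposite sign to ADIPOQ, and CDH13, also on that list, was not measured. ADIPOR1 at 0.70 (SE 0.17), ADIPOR2 at 0.53 (SE 0.17) and the adaptor APPL1 at 0.66 (SE 0.16) all passed with positive ratios. Their limma adjusted p ran from 0.0158 to 0.0353, and 24.1% of all genes were called positive.

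Endothelial genes had 5 negative calls and 1 positive call among 15 (median -0.44), against 10.7% and 24.1% of all genes. The receptor kinase TIE1 was at -0.82 (SE 0.22), the VEGF receptor FLT1 at -0.57 (SE 0.16) and endoglin, ENG, at -0.66 (SE 0.20). The positive call, ESAM, an endothelial adhesion protein also named after its value was seen, was at 0.59. Of the 7 cadherins, catenins and partners, 3 passed, all positive, against 24.1% of all genes called positive. These were the catenins CTNNB1 (β-catenin) at 0.84 (SE 0.17), JUP at 0.59 (SE 0.16) and CTNNA1 at 0.66 (SE 0.18), while the catenin CTNND1 at 0.58 (SE 0.25, limma adjusted p = 0.0930) and the phosphatase PTPRB at -0.31 (SE 0.20) did not pass. The epithelial cadherin CDH1 at 0.50 (SE 0.19, limma adjusted p = 0.0565) and CDH2 at 0.51 (SE 0.22, adjusted p = 0.0863), both of other cadherin types than CDH5, did not pass either.

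Fibroblast and matrix genes had 6 negative calls and 1 positive call among 15 (median -0.44), against 10.7% and 24.1% of all genes. COL1A2, the partner chain of COL1A1 in type I collagen, was at -0.63 (SE 0.20, limma adjusted p = 0.0327), with -0.47, -1.09 and -0.32 on the 3 arrays, a different order from COL1A1. The matrix proteoglycan LUM was at -0.84 (SE 0.19) and COL5A2 at -0.90 (SE 0.22), while the secreted matrix protein SPARC was at 0.72 (SE 0.16), and all passed. Of 13 enzymes and chaperones that process collagen, 10 were called positive (median 0.64), against 24.1% of all genes, and 2, BMP1 (-0.0015) and ADAMTS2 (-0.06), had means just below 0. Among those called were PPIB at 0.87 (SE 0.18), the lysyl hydroxylase PLOD1 at 0.73 (SE 0.15) and P4HB, a subunit of prolyl hydroxylase, at 0.70 (SE 0.15).

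Of 14 monocyte and macrophage genes, 12 had a negative mean, unlike CD14, and 1 passed, against 34.8% of all genes, CD68, a lysosomal glycoprotein, at 0.81 (SE 0.25, limma adjusted p = 0.0311), against a list median of -0.29. Of 10 genes of the endotoxin receptor complex and its pathway, 7 had a negative mean and 2 passed, both negative (median -0.29), against 10.7% of all genes. These were the receptors TLR4 at -0.56 (SE 0.20) and TLR2 at -0.58 (SE 0.21). TLR1 at -0.56 (SE 0.23, limma adjusted p = 0.0800) and TLR6 at -0.38 (SE 0.19, adjusted p = 0.120) did not pass, nor did the adaptors MYD88 at 0.34 and TIRAP at 0.31. With linalool, LY96, the TLR4 partner that takes endotoxin from CD14, stood at 0.77 and 1.01 on the 2 arrays, against -0.56 to 0.47 on the other 6. Its mean of 0.89 (SE 0.24) did not pass (limma adjusted p = 0.265), nor did its difference to lipid-loaded cells, 1.01 (SE 0.31, adjusted p = 0.355). LBP, the serum protein that brings endotoxin to CD14, was at -0.07 and -1.54 on the linalool arrays, and TLR4 at 0.02 and 0.18. The linalool median of these 10 genes was 0.06. At an unadjusted p under 0.05 (limma), 1 of them was positive and 2 were negative, against 12.4% of all genes in either direction. All 17 measured hepatocyte genes were positive in lipid-loaded cells, and 16 passed (median 0.68), against 24.1% of all genes called positive, APOA1 with 0.99 (SE 0.15) among them.

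**Figure D4:**
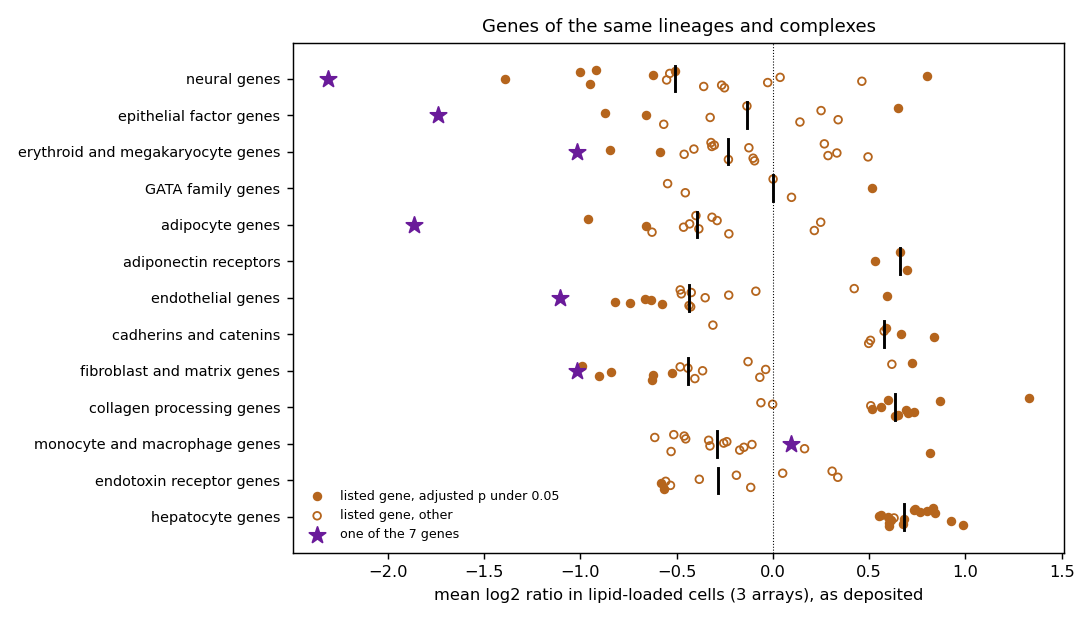
Mean log2 ratio in lipid-loaded cells (horizontal axis, deposited sign) of the genes of each list, filled where limma's adjusted p was under 0.05, with a black bar at the list median and a star for the one of the 7 genes that belongs to the lineage. Stars of POU3F3, OVOL3, GATA1, ADIPOQ, CDH5 and COL1A1 lie below every gene of their own list, which their choice for negative ratios favours, and that of CD14 lies at 0.09.

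Values also piled up at other ratios of small whole numbers. At a ratio of 0.5, for example, lipid-loaded replicate 2 had 318 probes against 9 and 12 at the neighbouring thousandths, and lipid-loaded replicate 3 had 260 against 4 and 3. Over the 17 ratios from 0.2 to 2 of whole numbers up to 6 (within 0.001), 5.59% of the values of all probes with a symbol lay on one, against 2.61% in windows 0.005 beside them. Of the 56 values of the 7 genes, the GATA1 value was the only one there. In the lists the share ran from 3.57% for hepatocyte genes (2.68% in the windows beside) to 12.5% for endotoxin receptor genes (0.446% beside). The GATA family had 4.17% against 5.21% beside, so no excess, and adipocyte genes had 9.82% against 0.893%. Values of named genes at exactly 0.5 included PLIN4 and LBP on lipid-loaded replicate 2 and FABP4 on lipid-loaded replicate 3. Those at exactly 1 included OVOL2 on lipid-loaded replicate 2 and POU3F2 on lipid-loaded replicate 1. Their part in the results was not tested, apart from leaving out ratios of exactly 1. The call counts of all lists in lipid-loaded cells rest on the same fit, in which no gene passed without lipid-loaded replicate 1.

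By Pearson correlation over the 8 arrays, the genes with the most similar pattern were LDB3 (0.981) and TTTY22 (0.969) for POU3F3, MEX3B (0.992) and BACE2 (0.968) for OVOL3, and AMDHD2 (0.978) and FUZ (0.963) for GATA1. They were GCNT4 (0.974) and FLT1 (0.971) for ADIPOQ, ADAM3A (0.988) and LONRF2 (0.987) for CDH5, RPL26L1 (0.960) and GDF11 (0.952) for COL1A1, and PFKFB1 (0.965) and WNT10A (0.955) for CD14. These were the highest of the correlations with all other genes, over arrays that share the untreated condition, and 8 to 82 genes passed 0.9 for each of the 7. Among the 7 themselves, ADIPOQ and CDH5 were closest by Pearson correlation (0.935, Spearman 0.786), followed by OVOL3 and ADIPOQ (0.850, Spearman 0.786). By Spearman correlation ADIPOQ and COL1A1 were closest (0.881, Pearson 0.601). GATA1 was apart from POU3F3, OVOL3, ADIPOQ, CDH5 and COL1A1, with Pearson values from -0.084 to 0.234.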

How the data were processed

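RNA of HepG2 cells was measured on 2-colour arrays. The authors deposited 1 value per probe and array (29187 probes, 4 values missing), which are log2 ratios between the channels. Taking 1 constant off each array left log2 values of ratios rounded to 3 decimals (tolerance 0.0001, ratios of 0.2 to 2). Column means lay within 5.9e-05 of 0, and column medians were -0.0048, 0.0402 and 0.0580 (lipid-loaded), 0.0865, 0.0635 and -0.0120 (fenofibrate), and 0.0452 and 0.0507 (linalool). Base and centring are thus known and the direction is not. How spots were scanned and normalized is not given in the sources used here. Per the labels' protocols, 8 µg of RNA was labelled from oligo(dT).

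Platform annotation gave 25053 probes 1 gene symbol, 0 several and 4134 none, and 24981 were matched by gene ID to the RefSeq gene table. Probes of a gene were averaged to 18821 genes, and 18819 were tested. One limma fit (3.58.1, R 4.3.3) over the 8 arrays, with a coefficient per group, gave two-sided p-values with Benjamini-Hochberg adjustment over all genes, called under 0.05. The fit was tested on simulated data. The genes and lists were chosen with earlier results of these data known. Named were the 7 genes, relatives in their family or receptor complex, up to 3 genes per list with the lowest p in lipid-loaded cells, and the 2 genes most correlated with each of the 7. TUBB3, ESAM, BMP1, ADAMTS2, MYD88 and TIRAP were named outside this rule. Alternatives changed the scaling, centring, array weights, samples in the fit, replicate block, probe summary, prior and each array. Leaving out ratios of exactly 1, and the count of ratios of small whole numbers, were chosen after seeing the data.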

Additional observations from a re-analysis of the deposited data

Results flagged for a closer look

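GATA1 had opposite signs in different groups. Both linalool ratios were above 0, while all 3 lipid-loaded and all 3 fenofibrate ratios were below 0. The difference was 1.38 for linalool minus lipid-loaded (limma adjusted p = 0.355) and 2.34 for linalool minus fenofibrate (limma adjusted p = 0.777), and neither passed. Over the alternatives the adjusted p ran from 0.184 to 0.782 and from 0.264 to 0.995. Of the 2 linalool values, 1 is a ratio of exactly 1. Its sign is that of the constant added to the array (0.0195), and it lay below that array's median of 0.06 over all genes. Without ratios of exactly 1 the differences were 1.71 and 2.67, each resting on 1 linalool array.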

How the results depend on the processing

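The count of genes called in lipid-loaded against untreated cells depended most on the settings. It was 6555, fell to 2479 with quantile normalization and to 0 once arrays were brought to equal spread (smallest limma adjusted p 0.0679), and ranged from 0 to 7772 when 1 array was left out. It was 0 without lipid-loaded replicate 1 (smallest limma adjusted p 0.0987), 2010 without replicate 2 and 3087 without replicate 3. The fenofibrate count of 0 became 1 with array weights and ranged from 0 to 1 with 1 array left out. The linalool count of 0 became 124 with scaled arrays and 99 with array weights, and ranged from 0 to 6 with 1 array left out. Leaving out 1 array gave 0 to 1 for linalool minus lipid-loaded and 0 to 3 for linalool minus fenofibrate. The cause was not tested.

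The median of the 7 genes with 1 array left out ranged from -0.51 to 0.41 for linalool against untreated (-0.20 with all) and from -0.13 to 0.65 for linalool minus fenofibrate (0.11 with all), the high ends without linalool replicate 1. In linalool minus fenofibrate POU3F3 reversed to -0.10 with scaled arrays, -0.11 with array weights, -0.27 without fenofibrate replicate 1 and -0.05 without linalool replicate 1, within a range of -0.27 to 0.33 with 1 array left out. ADIPOQ reversed to -0.14 and COL1A1 to -0.13 without fenofibrate replicate 1, and to -0.58 and -0.43 without linalool replicate 2. CD14 with linalool was 1.55 with scaled arrays. All other gene differences, 349 of 357, kept their direction and their side of the threshold, but sizes changed. With scaled arrays POU3F3 in linalool minus lipid-loaded was 0.75 (1.46 in the main fit). In fenofibrate minus lipid-loaded POU3F3 was 0.84 (1.39 in the main fit), while GATA1 was -1.60 (-0.96 in the main fit).

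Deviations from the group means correlated at -0.021 to 0.140 between same-numbered arrays of different groups, against -0.141 to 0.066 for other pairs. Deviations within a group sum to 0, so these values cannot show whether same-numbered arrays belong together. With the replicate block 6784 genes were called in lipid-loaded cells, and 0 in the other 5 comparisons.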
